A study of Homo sapiens with 18 samples.

Results

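The 10 genes described here encode the main bile acid transporters of the hepatocyte and the phospholipid and conjugate pumps that work beside them. They are the exporter subunits SLC51A and SLC51B, the canalicular pumps ABCB11, ABCB4 and ABCC2, the sinusoidal pumps ABCC3 and ABCC4, and the uptake carriers SLC10A1, SLCO1B1 and SLCO1B3. They were taken by symbol and function from the 35238 gene rows of a count table, with no threshold on their values. Of these 10 genes, 8 had enough counts to enter the test, which covered 14797 genes. ABCB11 and SLCO1B1 did not. RNA came from HepG2, an established human line grown from a hepatoblastoma, in a study of ligands of the nuclear receptor LRH-1 (gene NR5A2). Each of 6 treatments had 3 libraries: DMSO at 0.1%, ethanol at 0.1%, 6N at 10 µM, 10CA at 10 µM, 6N-10CA at 10 µM, and DLPC, a dilauroyl phosphatidylcholine known to bind LRH-1, at 100 µM. Cells of every treatment were held in DMEM containing 10% charcoal-stripped serum, and the labels do not state the hours of exposure. The small molecules were set against DMSO and DLPC against ethanol, a pairing taken from knowledge of the study because the labels do not state it. HepG2 is a tumour line in culture, so its transporter levels describe that line and not liver tissue.

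Bile acids are taken up from portal blood across the sinusoidal membrane by SLC10A1, also called NTCP, and by the carriers SLCO1B1 and SLCO1B3. They are secreted into bile by ABCB11, the bile salt export pump, while ABCB4 moves phosphatidylcholine to the outer leaflet and ABCC2 exports conjugates such as bilirubin glucuronide. The heterodimer of SLC51A and SLC51B, known as OSTα-OSTβ, and the pumps ABCC3 and ABCC4 return bile acids and conjugates to blood, and the bile acid receptor FXR is known to induce both heterodimer subunits. LRH-1 is known for its part in the transcription of bile acid synthesis genes.

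Library totals ran from 28135967 to 34992442 counts. Levels are given as CPM, counts scaled to a common library total, after TMM scaling, which corrects for library size and composition. All 9 hepatocyte and hepatoblast markers examined, ALB and AFP among them, averaged at least 1 CPM, with summed levels of 55510 to 72960 CPM per library. Of 6 cholangiocyte markers, 3 (KRT19, SOX9 and EPCAM) averaged at least 1 CPM. So did 2 of 7 stromal markers (PDGFRB and ACTA2), 3 of 5 endothelial markers and 2 of 5 blood markers (CD68 and LYZ), while KDR and HBB had no count in any library. In bulk RNA a change in the number of cells of a type and a change in RNA per cell cannot be told apart.

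Of the transporter genes, SLC51A was the one called against vehicle. It rose 1.60-fold with 6N and 2.15-fold with 6N-10CA against DMSO, and it did not pass the test with 10CA or DLPC. In this section a gene is called, and is said to rise or fall, when its adjusted p from the quasi-likelihood test of edgeR, adjusted by Benjamini-Hochberg over all 14797 genes, was under 0.05. The other 7 tested transporter genes were not called in any of the 4 comparisons with vehicle. Other settings did pass SLC51B with 6N-10CA (adjusted p = 0.02489 by DESeq2, 0.01977 by edgeR with a replicate block). They also passed ABCC3 with DLPC (0.0253 by DESeq2, 0.01726 by edgeR with the block).

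**Figure D1:**
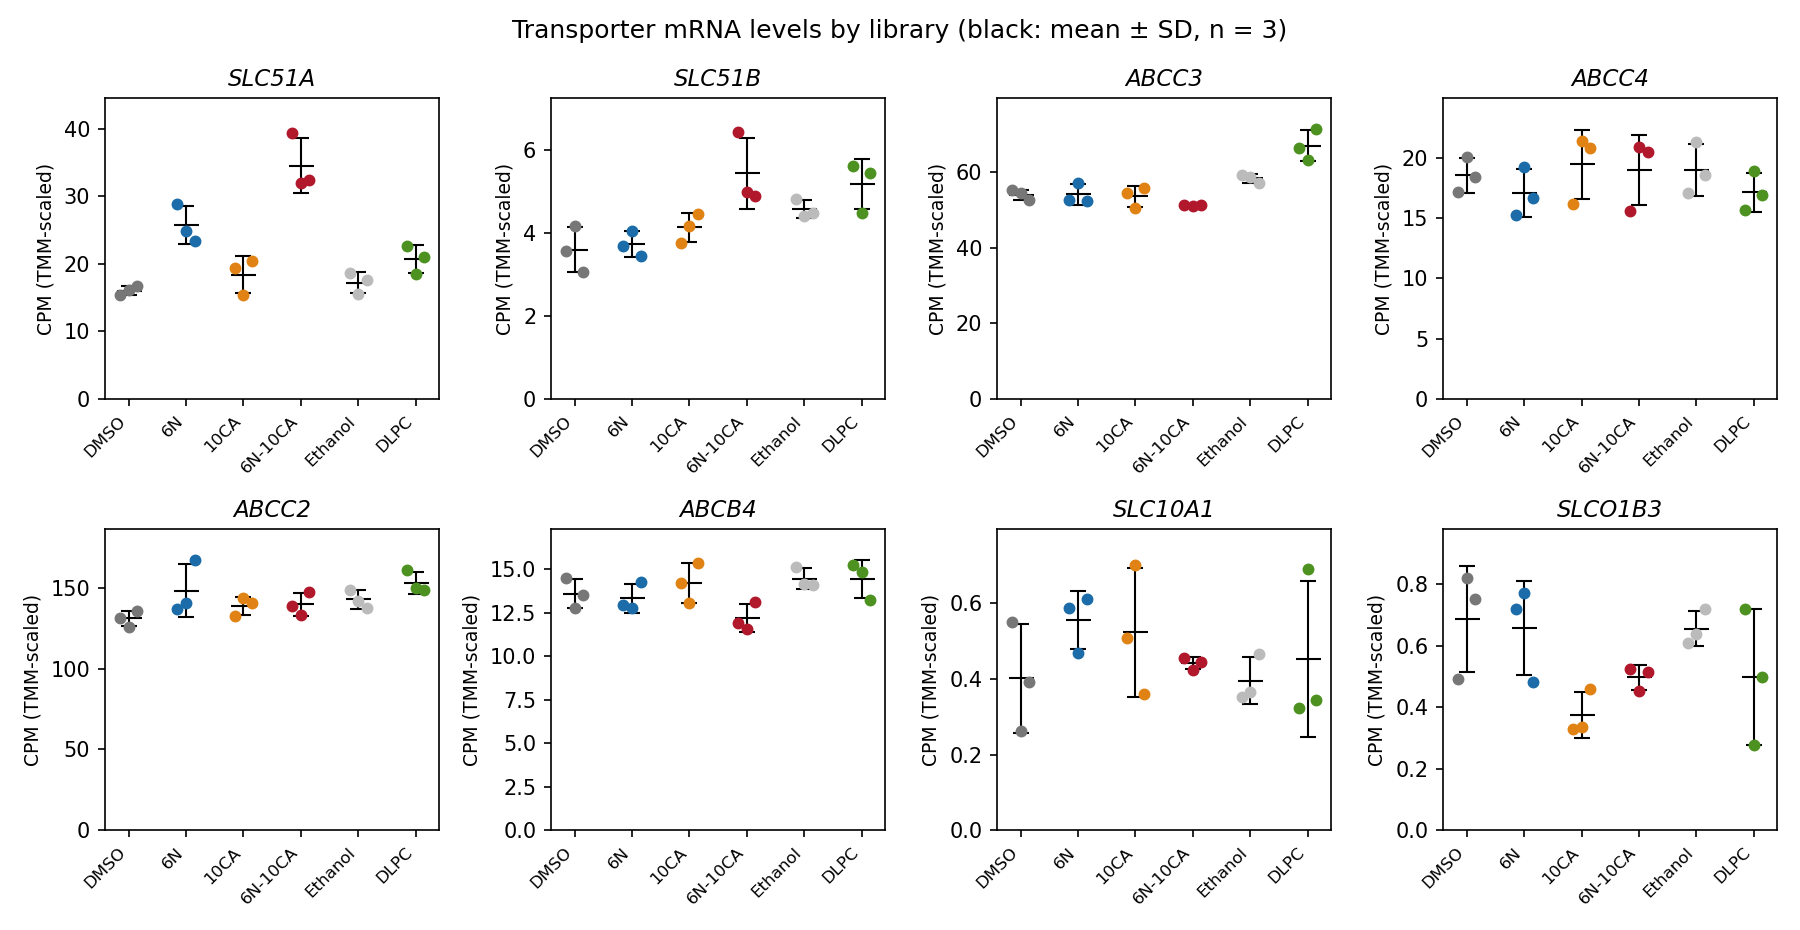
Level of the 8 tested transporter genes in each of the 18 libraries, in TMM-scaled CPM on a linear axis from 0, by treatment. Points are libraries and black marks are the mean and SD of 3 libraries. For SLC51A the 6N libraries lie at 23.4 to 28.9 CPM and the 6N-10CA libraries at 32.0 to 39.3 CPM, all above the DMSO libraries at 15.4 to 16.7 CPM.

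SLC51A encodes the larger subunit of the exporter (GENCODE release 29 on GRCh38, chromosome 3, 196211487 to 196243178, plus strand). The 3 DMSO libraries held 15.4, 16.2 and 16.7 CPM, the 6N libraries 28.9, 24.9 and 23.4 CPM, and the 6N-10CA libraries 39.3, 32.0 and 32.4 CPM. Every 6N library stood above every DMSO library, and every 6N-10CA library stood above every 6N library. With 10CA the values were 19.4, 15.4 and 20.5 CPM, which overlapped the DMSO values. The ethanol libraries held 18.6, 15.5 and 17.6 CPM and the DLPC libraries 22.6, 18.5 and 21.0 CPM, and the lowest DLPC library fell within the ethanol range.

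Against DMSO, the log2 fold change of SLC51A was 0.68 with 6N (95% interval 0.45 to 0.92) with an adjusted p of 0.002084 in edgeR's quasi-likelihood test. With 6N-10CA it was 1.11 (0.87 to 1.34), with an adjusted p of 3.483e-05 in that test. These were the calls among 8 tested members in each comparison, 1 of 8 with 6N and 1 of 8 with 6N-10CA, where 1.14% and 0.264% of all genes were called. The 6N and 6N-10CA calls share the DMSO libraries. With 10CA the difference was 0.20 (-0.04 to 0.44, adjusted p = 0.7611 by edgeR), and 0% of all genes were called in that comparison. DESeq2 called 13 genes and 0 members there, 20 genes were called without the filter on low counts, and the unadjusted p was under 0.05 for 1033 genes and for 1 of the 8 members, SLCO1B3. With DLPC against ethanol the difference was 0.27 (0.03 to 0.50, adjusted p = 0.3101 by edgeR), 0 of 8 members were called and 1.04% of all genes were. The unadjusted p was under 0.05 for 2 members, SLC51A and ABCC3, in that comparison, and DESeq2 called 1, ABCC3. Of all 14797 genes, 1930 had an unadjusted p under 0.05 there and DESeq2 called 380. The dose of DLPC was 100 µM and that of the small molecules 10 µM, so these responses stand side by side and were not compared. The ethanol and DMSO libraries differed by 0.10 in SLC51A, which was not called (adjusted p = 1 by edgeR), and 0% of all genes were called between the vehicles, where 479 genes and 1 member, SLC51B, had an unadjusted p under 0.05 and DESeq2 called 13 genes and 0 members.

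**Figure D2:**
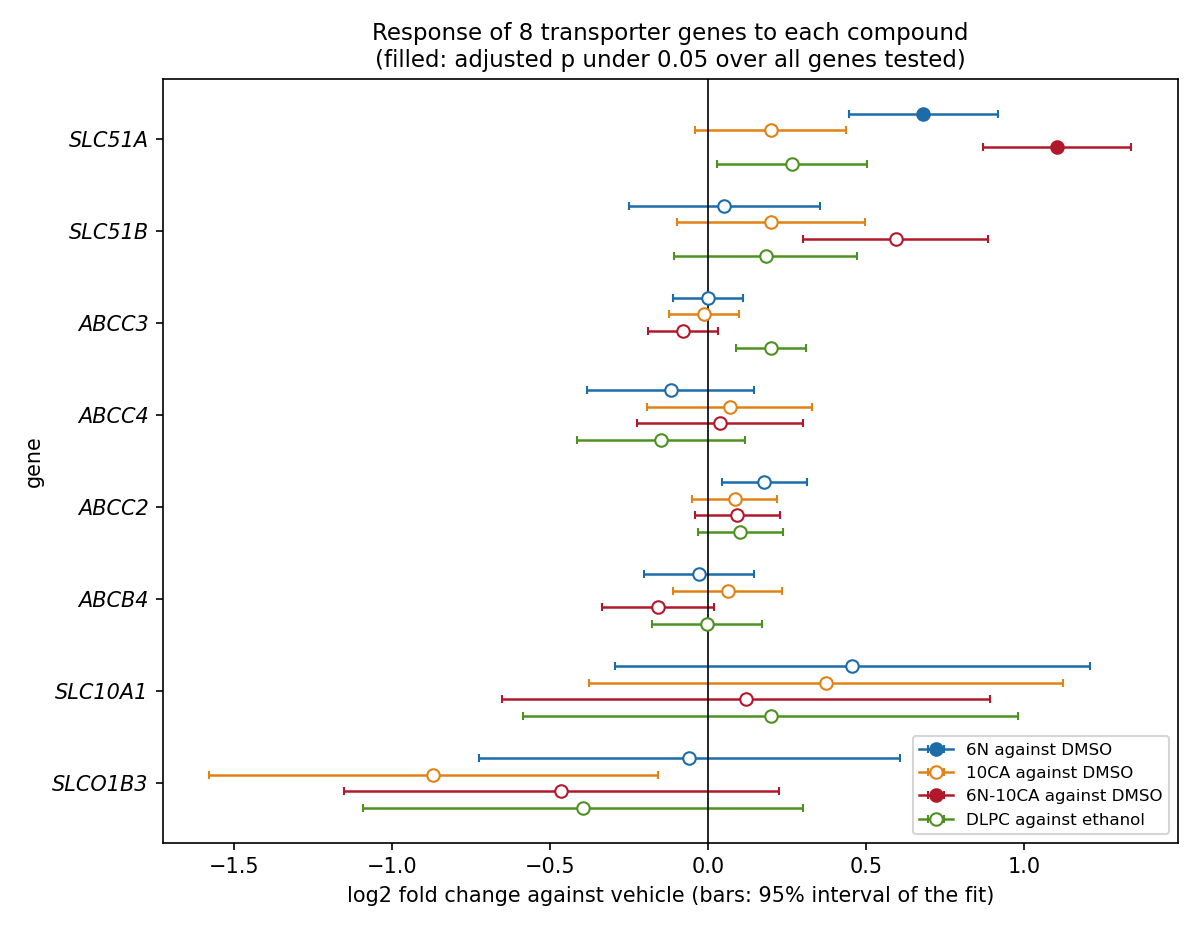
Log2 fold change of the 8 tested transporter genes against vehicle with the 95% interval of the fit, for 6N, 10CA and 6N-10CA at 10 µM against DMSO and DLPC at 100 µM against ethanol. Filled symbols mark an adjusted p under 0.05. The filled symbols are SLC51A with 6N, at 0.68, and with 6N-10CA, at 1.11, and the intervals of SLC10A1 and SLCO1B3, genes of few counts, are the widest.

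The small molecules were given at the same dose and could be compared directly in 3 pairs. The labels name them only by code, and 6N-10CA carries both other codes in its name. SLC51A was higher with 6N-10CA than with 10CA by 0.91 (0.68 to 1.14, adjusted p = 0.0007678 by edgeR), a 1.88-fold difference, and this was 1 of 8 members called where 0.23% of all genes were called. It was lower with 10CA than with 6N by a log2 difference of -0.48 (-0.72 to -0.25, adjusted p = 0.02913 by edgeR), again 1 of 8 members, where 1.71% of all genes were called. That call was lost when 6N replicate 1, 6N replicate 2, 10CA replicate 1 or 10CA replicate 2 was left out (largest adjusted p 0.1655), and when only the libraries of both groups were fitted. Between 6N-10CA and 6N the libraries did not overlap and the difference was 0.42 (0.20 to 0.65), but the adjusted p was 0.05598 by edgeR, and 0 of 8 members were called where 1.64% of all genes were. DESeq2 called 2 members there, SLC51A and SLC51B, the same 2 genes that had an unadjusted p under 0.05. Of all 14797 genes, DESeq2 called 501 and 2137 had an unadjusted p under 0.05 in that comparison. Over 13 alternative settings the adjusted p of SLC51A between 6N-10CA and 6N ran from 0.001405 to 0.212. It was under 0.05 in 6, among them the fit without 6N replicate 1. The 6N-10CA response of SLC51A exceeded the sum of the 6N and 10CA responses on the log2 scale by 0.23 (-0.10 to 0.56), which was not called (adjusted p = 0.7803 by edgeR). No member was called for that contrast (0 of 8, and 0 with an unadjusted p under 0.05 and 0 with DESeq2), where 0.595% of all genes were. For the same contrast 1112 of all genes had an unadjusted p under 0.05 and DESeq2 called 117.

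SLC51A exons share 389 bases with PCYT1A, a gene of phosphatidylcholine synthesis that lies on the opposite strand. Whether the reads were counted by strand is not stated in the labels, so reads of the shared stretch cannot be told apart. PCYT1A itself held 33.0 ± 2.63 CPM with DMSO and 32.5 ± 3.58 CPM with 6N-10CA (SD, n = 3). Its log2 fold change was 0.00 with 6N and -0.02 with 6N-10CA, where SLC51A differed by 0.68 and 1.11. The summed level of the 6 cholangiocyte markers was 1006 to 1048 CPM with 6N, 1110 to 1136 CPM with 6N-10CA and 1096 to 1166 CPM with DMSO. The summed level of the 5 blood markers, HBB being at 0, was 330.5 to 377.7 CPM with 6N, 355.7 to 362.3 CPM with 6N-10CA and 390.0 to 407.2 CPM with DMSO. The 5 endothelial markers, KDR being at 0, summed to 36.0 to 37.5 CPM with 6N-10CA and 32.7 to 35.1 CPM with DMSO. Every library is labelled HepG2, so these sums are marker levels in that line and not measured cell shares. Their part in the SLC51A result was not tested.

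SLC51B encodes the smaller subunit, without which SLC51A does not reach the cell surface (chromosome 15, 65045370 to 65053396, plus strand). With the filter on low counts and no replicate block, edgeR's quasi-likelihood test did not call it in any comparison, and DESeq2 called it in 2. The DMSO libraries held 3.56, 4.16 and 3.07 CPM, the 6N libraries 3.69, 4.06 and 3.45 CPM and the 10CA libraries 3.77, 4.17 and 4.47 CPM. These 3 groups overlapped. The 6N-10CA libraries held 6.43, 4.99 and 4.90 CPM and were above every DMSO, 6N and 10CA library. The ethanol libraries held 4.82, 4.41 and 4.49 CPM and the DLPC libraries 5.61, 4.49 and 5.46 CPM, with overlap.

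The difference of SLC51B between 6N-10CA and DMSO was 0.59 on the log2 scale (0.30 to 0.89), and its adjusted p of 0.0892 by edgeR did not pass. It passed with DESeq2 (0.02489), and with edgeR without the filter on low counts (0.04691) or with a replicate block (0.01977). Against 6N the difference was 0.54 (0.25 to 0.84, adjusted p = 0.05899 by edgeR). That passed with DESeq2 (0.02489), and with edgeR without the filter (0.04635) or with the block (0.01869). Against 10CA it was 0.39 (adjusted p = 0.3838 by edgeR). With 6N alone the difference from DMSO was 0.05, with 10CA 0.20, and with DLPC from ethanol 0.18. SLC51B was also higher in all 3 ethanol libraries than in all 3 DMSO libraries, by 0.35, which was not called (adjusted p = 1 by edgeR). Against ethanol in place of DMSO the 6N-10CA difference was 0.25 (adjusted p = 0.5921 by edgeR). SLC51B shares 60 exon bases with RASL12 on the opposite strand, which averaged 0.431 CPM.

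**Figure D3:**
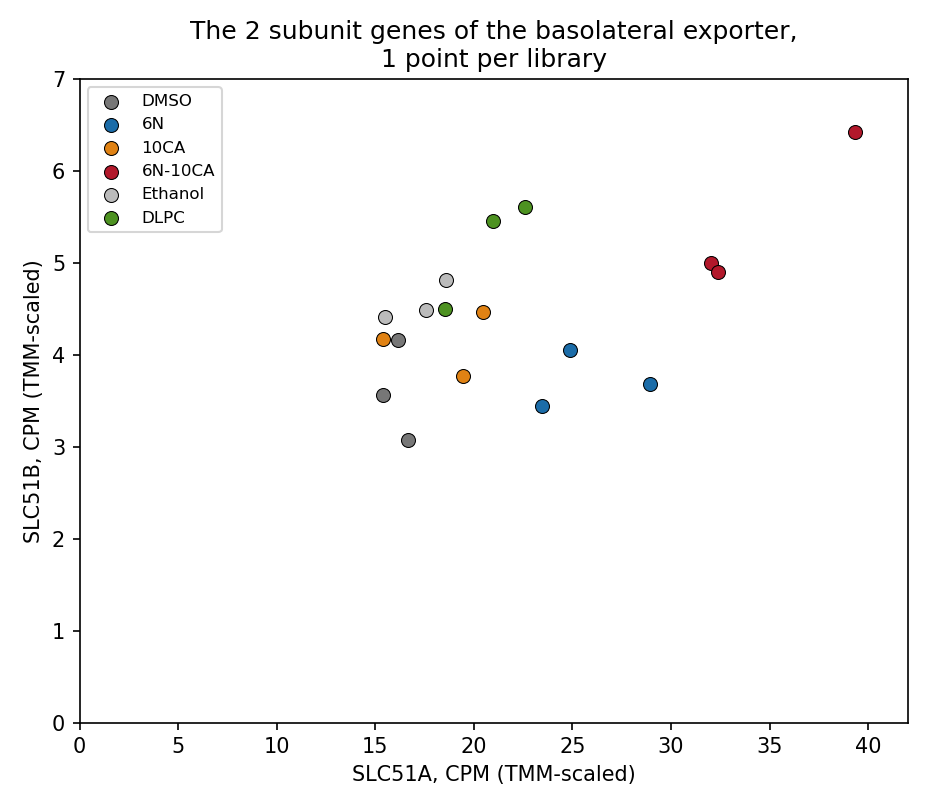
SLC51B against SLC51A in TMM-scaled CPM, 1 point per library, coloured by treatment. The 6N libraries lie to the right of the DMSO libraries at the same height (SLC51B 3.45 to 4.06 CPM against 3.07 to 4.16 CPM), and the 6N-10CA libraries lie to the right and above.

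The ratio of SLC51A to SLC51B counts, not corrected for exon length, was highest with 6N and 6N-10CA. It was 4.54 ± 0.80 with DMSO (SD, n = 3) and 4.48 ± 0.74 with 10CA. It was 6.93 ± 0.87 with 6N and 6.38 ± 0.24 with 6N-10CA. All 6N and 6N-10CA libraries had a ratio of at least 6.12, and the highest DMSO library had 5.43. With ethanol the ratio was 3.77 ± 0.22 and with DLPC 3.998 ± 0.145. These ratios are a description and carry no test. They are ratios of read counts and not of transcript numbers.

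The sequences before the starts of both subunit genes are shown because the products act as a pair, yet SLC51A was called with 6N and SLC51B was not; the difference between the responses of both genes was not tested. They come from RefSeq on GRCh38.p14 and run 5′ to 3′ over the 250 bases before each start, chr3:196216284-196216533 for SLC51A and chr15:65045137-65045386 for SLC51B, both on the plus strand. The RefSeq start of SLC51A lies inside the span that GENCODE gives the gene. Capitals mark matches to the nuclear receptor hexamers AGGTCA and GGGTGA on either strand.
SLC51A: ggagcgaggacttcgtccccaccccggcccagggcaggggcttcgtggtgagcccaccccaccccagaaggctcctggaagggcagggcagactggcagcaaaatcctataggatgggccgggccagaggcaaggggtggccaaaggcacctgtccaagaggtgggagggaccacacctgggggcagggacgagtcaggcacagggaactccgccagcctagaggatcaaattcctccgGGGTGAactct
SLC51B: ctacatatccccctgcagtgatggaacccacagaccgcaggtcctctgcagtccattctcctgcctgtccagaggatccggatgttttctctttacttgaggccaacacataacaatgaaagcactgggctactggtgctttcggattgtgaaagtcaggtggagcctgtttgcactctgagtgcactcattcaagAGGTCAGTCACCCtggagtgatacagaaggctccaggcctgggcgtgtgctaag

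In SLC51B the capitals hold AGGTCA followed after 1 base by TCACCC, the reverse complement of GGGTGA, the layout of the inverted repeat with a single-base spacer that FXR is known to bind. Motifs were searched on both strands in windows of 300 bases, 250 before and 50 after the start, and 8 of the 10 genes matched a window, all but ABCB4 and ABCC3. The arrangement AGGTCANTCACCC, which overlaps both hexamers and was written down after the SLC51B sequence had been read, was present in 1 of 35116 such windows, that of SLC51B. The perfect repeat AGGTCANTGACCT was present in 0. The hexamer AGGTCA alone was in 13.8% of all windows and in 3 of the 8 (SLC51B, SLC10A1 and SLCO1B3), and GGGTGA in 16.8% and in 4 of the 8 (SLC51A, SLC51B, ABCC4 and SLCO1B3). The LRH-1 motifs CAAGGTCA and CAAGGCCA, in 1.28% and 1.65% of all windows, matched 0 of the 8. Over the 300 bases the SLC51A and SLC51B windows were 50.7% identical in a global alignment. A match here describes letters and not binding, which was not measured.

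ABCC3 and ABCC4 export conjugates and bile acids to blood. ABCC3 (MRP3, chromosome 17, 50634777 to 50692252, plus strand) held 59.2, 58.8 and 57.2 CPM in the ethanol libraries and 66.4, 63.4 and 71.4 CPM in the DLPC libraries. All DLPC libraries were above all ethanol libraries. The log2 difference was 0.20 (0.09 to 0.31) with an adjusted p of 0.07908 by edgeR, so it was not called. It passed with DESeq2 (adjusted p = 0.0253) and with the replicate block in edgeR (0.01726). Against DMSO in place of ethanol the DLPC difference was 0.31 (adjusted p = 0.003529 by edgeR). That value includes the difference between vehicles: ABCC3 was 0.11 higher with ethanol than with DMSO (-0.001 to 0.22), which was not called. ABCC2 was the other member whose DLPC and ethanol libraries did not overlap, also higher, which made 2 of 8 members where 19.2% of all genes did not overlap in either direction. With the small molecules ABCC3 lay within 0.08 of DMSO on the log2 scale, at 0.00 with 6N, -0.01 with 10CA and -0.08 with 6N-10CA. The 6N-10CA libraries, at 51.3, 51.2 and 51.3 CPM, were all below the DMSO libraries at 55.3, 54.4 and 52.7 CPM. The interval of that difference was -0.19 to 0.03 and it was not called. The 5 endothelial markers, KDR being at 0, summed to 38.2 to 46.6 CPM with DLPC and 36.6 to 37.9 CPM with ethanol. The 6 cholangiocyte markers summed to 1080 to 1103 CPM with DLPC and 1118 to 1154 CPM with ethanol, and the 7 stromal markers to 95.6 to 103.7 and 107.7 to 113.6 CPM. The part of these markers in the ABCC3 values was not tested.

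ABCC4 (MRP4, chromosome 13, 95019829 to 95301475, minus strand) ranged from 15.3 to 21.4 CPM over all 18 libraries, and every treatment overlapped its vehicle. Its differences from vehicle were -0.12 with 6N, 0.07 with 10CA, 0.04 with 6N-10CA and -0.15 with DLPC. The widest of those intervals ran from -0.41 to 0.12.

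Of the canalicular genes, ABCC2 was the most abundant of all members and ABCB11 was almost absent. ABCC2 (MRP2, chromosome 10, 99782640 to 99852594, plus strand) held 131.6, 126.0 and 135.8 CPM with DMSO and 137.2, 140.4 and 167.4 CPM with 6N. All 6N libraries were above the DMSO libraries, and 6N replicate 3 stood above the other two. The log2 difference was 0.18 (0.04 to 0.31), which was not called (adjusted p = 0.3238 by edgeR). SLC51A and ABCC2 were the 2 of 8 members whose 6N and DMSO libraries did not overlap, where 13.6% of all genes did not. ABCC2 lay 0.08 above DMSO with 10CA, 0.09 with 6N-10CA and 0.10 above ethanol with DLPC, and its adjusted p in edgeR's quasi-likelihood test was at least 0.3238 in all 4 comparisons with vehicle.

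ABCB4 (MDR3, chromosome 7, 87401697 to 87480435, minus strand) stayed between 11.6 and 15.3 CPM in all 18 libraries. Its mean was 13.6 ± 0.85 CPM with DMSO, 12.2 ± 0.80 CPM with 6N-10CA and 14.4 ± 1.08 CPM with DLPC (SD, n = 3). The largest of the 4 differences from vehicle, -0.16 with 6N-10CA (-0.33 to 0.02), was not called. With DLPC, itself a phosphatidylcholine, the difference from ethanol was 0.00 with an interval of -0.18 to 0.17.

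ABCB11 (BSEP, chromosome 2, 168915498 to 169031324, minus strand) had 1 count in 1 of 18 libraries, 6N replicate 2, and 0 in the other 17. A floor of 3 counts over all libraries corresponds to 0.00538 CPM, so a level below that could not be seen at this depth. No fold change is given for it.

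The uptake carriers were near the limit of detection. SLC10A1 (chromosome 14, 69775417 to 69797289, minus strand) had 8 to 23 counts per library, or 0.262 to 0.701 CPM, and all treatments overlapped their vehicles. Its differences were 0.46 with 6N (-0.29 to 1.21), 0.37 with 10CA (-0.38 to 1.12), 0.12 with 6N-10CA (-0.65 to 0.89) and 0.20 with DLPC (-0.58 to 0.98). Intervals of this width do not show whether the gene responded.

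SLCO1B3 (OATP1B3, chromosome 12, 20810702 to 20916911, plus strand) had 8 to 25 counts per library. The DMSO libraries held 17, 25 and 23 counts, the 6N libraries 22, 23 and 15, and the 10CA libraries 11, 11 and 14. All 10CA libraries were below all DMSO and all 6N libraries in CPM (0.329 to 0.460 CPM with 10CA, 0.492 to 0.819 CPM with DMSO). The difference from DMSO was -0.87 (-1.58 to -0.16), which was not called (adjusted p = 0.6751 by edgeR), and that from 6N was -0.81 (adjusted p = 0.2856 by edgeR). It was the 1 member of 8 whose 10CA and DMSO libraries did not overlap, where 12.8% of all genes did not. The other differences of SLCO1B3 from vehicle were -0.06 with 6N, -0.46 with 6N-10CA and -0.40 with DLPC.

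SLCO1B1 (OATP1B1, chromosome 12, 21131202 to 21239246, plus strand) had 9 counts in all, spread over 5 libraries with at most 3 in any, and was not tested. Its close relative SLCO1B7 had 0 counts. SLCO1B1 and SLCO1B3 lie on the same strand of chromosome 12 and are related in sequence, so reads of either could be assigned to the other. Each also shares exon bases with another annotated protein-coding gene on the same strand, 300 for SLCO1B1 and 1930 for SLCO1B3. Their upstream windows are printed because the genes shared an upstream motif and differed in counts, 311 in all for SLCO1B3 and 9 for SLCO1B1. The windows are chr12:21131113-21131172 and chr12:20810614-20810673 on the plus strand of GRCh38.p14 (RefSeq), 5′ to 3′, with the match to the HNF1 motif GTTAATNAT in capitals.
SLCO1B1: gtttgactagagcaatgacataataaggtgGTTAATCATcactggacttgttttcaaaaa
SLCO1B3: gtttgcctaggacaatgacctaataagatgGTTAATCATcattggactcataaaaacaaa

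The pair was identical at 47 of 60 bases, and the motif began 51 bases before the SLCO1B1 start and 61 bases before the SLCO1B3 start. It was present in 0.792% of the 35116 windows of 300 bases, and in 2 of the 8 member windows. Over the full 300 bases both promoters were 64.8% identical in a global alignment.

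**Figure D4:**
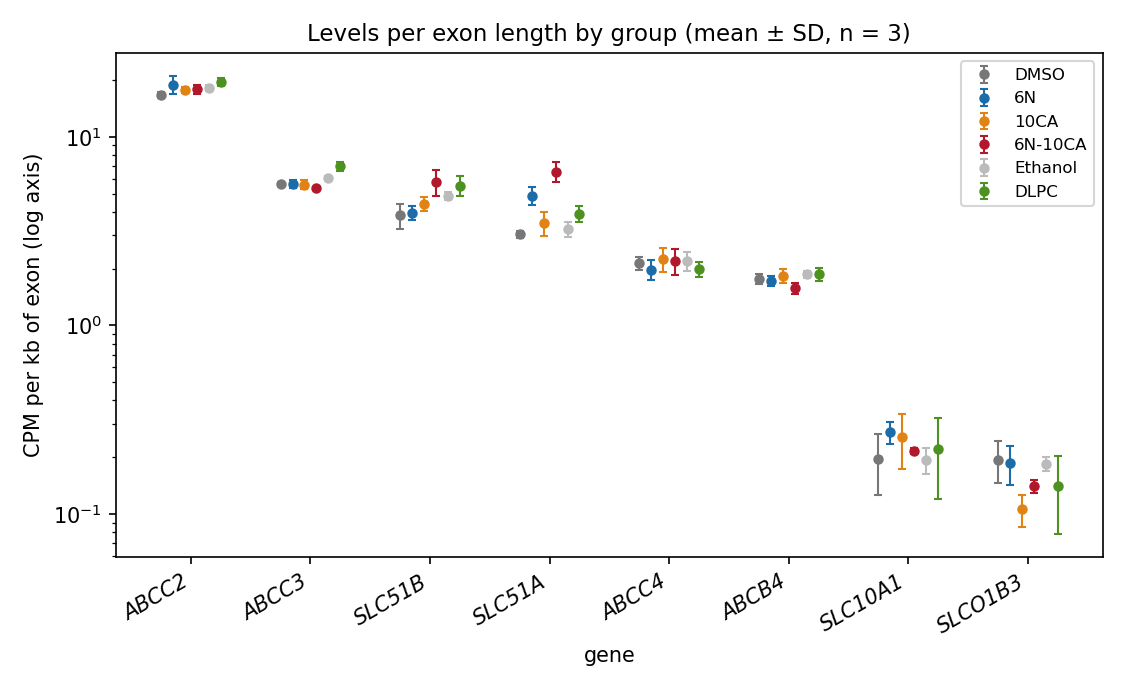
Level per kilobase of annotated exon (CPM per kb, log axis) of the 8 tested transporter genes in the 6 treatments, mean and SD of 3 libraries. ABCC2 is highest, ABCC3, SLC51B and SLC51A lie together below it, and SLC10A1 and SLCO1B3 are lowest, with SLC51A and SLC51B changing places between DMSO and 6N-10CA.

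Levels of different genes were compared per kilobase of annotated exon. The mean over all 18 libraries was 18.2 CPM per kb for ABCC2, 5.87 for ABCC3, 4.73 for SLC51B and 4.18 for SLC51A. The lowest ABCC2 library, at 16.1 CPM per kb, was above the highest value of any other member, while the ranges of ABCC3, SLC51B and SLC51A overlapped. ABCC4, at 2.13, and ABCB4, at 1.77, overlapped each other and lay below every ABCC3 library. SLC10A1, at 0.225, and SLCO1B3, at 0.159, also overlapped, and SLCO1B1 and ABCB11 came last at 0.00715 and 0.000242. With the exon lengths used, 5293 bases for SLC51A and 940 for SLC51B, the order of the exporter subunits depended on the treatment. SLC51B was at 3.83 ± 0.58 and SLC51A at 3.04 ± 0.12 CPM per kb with DMSO. They were at 5.79 ± 0.91 and 6.53 ± 0.78 with 6N-10CA (SD, n = 3). Which transcript forms were present was not measured, so the exon length used may not be that of the mRNA in these cells. The order of the exporter subunits rests on those lengths.

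As a set, the 8 tested members had a median log2 difference of 0.03 with 6N, 0.08 with 10CA, 0.07 with 6N-10CA and 0.14 with DLPC, where the median over all genes was between -0.001 and 0.001. Between 6N-10CA and DMSO 3 of the 8 did not overlap (SLC51A and SLC51B higher, ABCC3 lower), where 14.8% of all genes did not. Between 6N-10CA and 10CA 2 of the 8 did not overlap, SLC51A and SLC51B, where 12.5% of all genes did not. Between 6N-10CA and 6N 4 of the 8 did not overlap, SLC51A and SLC51B higher and ABCC3 and SLC10A1 lower, where 17.7% of all genes did not. Between 10CA and 6N 2 of the 8 did not overlap, SLC51A and SLCO1B3, where 16.7% of all genes did not. Between the vehicles 3 of the 8 (SLC51B, ABCC2 and ABCC3) did not overlap, all higher with ethanol, where 8.25% of all genes did not.

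Genes of the surrounding pathways were examined as 5 lists. None of the 16 tested genes of bile acid synthesis and conjugation was called against vehicle by edgeR's quasi-likelihood test in any of the 4 comparisons, and DESeq2 called 1 with 6N, 0 with 10CA, 1 with 6N-10CA and 2 with DLPC. An unadjusted p under 0.05 was reached by 6, 2, 2 and 3 of them in that order. Of all 14797 genes, DESeq2 called 246, 13, 173 and 380 in the same order. An unadjusted p under 0.05 was reached by 1384, 1033, 1466 and 1930 of all genes. CYP7A1, the enzyme that starts the main synthesis route, was 0.39 above DMSO with 6N (adjusted p = 0.09367 by edgeR) and 0.43 above it with 6N-10CA (adjusted p = 0.0908). It was called between compounds: higher with 6N-10CA than with 10CA by 0.54 (adjusted p = 0.03005) and lower with 10CA than with 6N by -0.49 (adjusted p = 0.01475 by edgeR). HSD3B7, which acts on the sterol ring, was lower with 6N-10CA than with 6N by -0.25 (adjusted p = 0.01844) and with 10CA than with 6N by -0.22 (adjusted p = 0.03869). CYP27A1, the sterol side-chain hydroxylase, was lower with 10CA than with 6N by -0.20 (adjusted p = 0.03862 by edgeR). None of these 5 calls held with every library left out in turn. CYP7A1 was lost against 10CA without 10CA replicate 2 or 3 or 6N-10CA replicate 1 or 2 (adjusted p up to 0.2182 by edgeR), and between 10CA and 6N without 6N replicate 1 or 10CA replicate 3 (up to 0.1118). HSD3B7 was lost between 6N-10CA and 6N without 6N replicate 1 or 2 or 6N-10CA replicate 3 (up to 0.1041), and between 10CA and 6N without 5 of the 6 libraries, all but 6N replicate 3 (up to 0.1692). CYP27A1 was lost without 5 of the 6, all but 6N replicate 2 (up to 0.1793). The list median was between -0.03 and 0.05 against vehicle.

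In the list of FXR, its cofactors and reported FXR targets other than transporters, 17 of 20 genes were tested. With 6N 1 rose and 1 fell, where 1.14% of all genes were called: KNG1, the kininogen gene, rose by 0.48 (adjusted p = 0.00501) and UGT2B4, a bile acid glucuronosyltransferase, fell by 0.44 on the log2 scale (adjusted p = 0.003862 by edgeR). With 6N-10CA 1 of 17 rose, KNG1 at 0.75 (adjusted p = 0.0001394 by edgeR), where 0.264% of all genes were called, and with 10CA 0 of 17 were called. With DLPC 2 of 17 rose, where 1.04% of all genes were called: RXRA, the partner of FXR on DNA, at 0.53 (adjusted p = 0.003633) and KLB, the coreceptor for FGF19, at 0.31 (adjusted p = 0.03451 by edgeR). In either direction, 7 of 17 had an unadjusted p under 0.05 with 6N, 0 with 10CA, 8 with 6N-10CA and 8 with DLPC. For all 14797 genes these counts were 1384, 1033, 1466 and 1930. In that order DESeq2 called 4, 0, 2 and 2 of the list, and 246, 13, 173 and 380 of all genes. Between 6N-10CA and 6N 1 was called where 1.64% of all genes were, PLTP, the phospholipid transfer protein gene, at 0.26 (adjusted p = 0.02204 by edgeR). KNG1 was the 1 called between 6N-10CA and 10CA, at 0.80 (adjusted p = 0.0003245 by edgeR), where 0.23% of all genes were called. Between 10CA and 6N 5 were called where 1.71% of all genes were: UGT2B4 was higher, and KNG1, SULT2A1, which sulfates bile acids and steroids, KLB and FETUB were lower, FETUB with an adjusted p of 0.04974 by edgeR. The KNG1, UGT2B4, RXRA and SULT2A1 calls held with each library left out in turn. The KLB call with DLPC was lost without any of the 6 libraries (adjusted p 0.05352 to 0.1233 by edgeR), and that between 10CA and 6N without 6N replicate 1 or 3 or 10CA replicate 1 or 3 (up to 0.1513). The FETUB call was lost without 5 of the 6, all but 6N replicate 3 (up to 0.1913). The PLTP call was lost without 6N replicate 2 or 3 or 6N-10CA replicate 1 or 2 (up to 0.1114). FXR itself, NR1H4, was 0.20 above DMSO with 6N (adjusted p = 0.3418) and 0.05 above it with 6N-10CA. NR0B2, which encodes the repressor SHP, was 0.34 above DMSO with 6N-10CA (adjusted p = 0.4553) and 0.37 above ethanol with DLPC (adjusted p = 0.292 by edgeR). Without a replicate block, edgeR called NR1H4 and NR0B2 in no comparison. With the block in edgeR, NR0B2 passed with 6N-10CA (adjusted p = 0.002658) and DLPC (0.0007323). It also passed between 6N-10CA and 10CA (0.0002066) and between 10CA and 6N (0.008109). NR1H4 passed with 6N (0.04568) and DLPC (0.01725) in that fit. NR1H4 and NR0B2 were added to the text after their values were seen, as was FETUB.

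Among 25 tested genes of other hepatocyte membrane transporters, 0 were called against vehicle by edgeR's quasi-likelihood test, and DESeq2 called 1 with 6N, 0 with 10CA, 2 with 6N-10CA and 2 with DLPC. An unadjusted p under 0.05 was reached by 5, 1, 5 and 6 of them in that order. Among all 14797 genes, DESeq2 called 246, 13, 173 and 380, and 1384, 1033, 1466 and 1930 had an unadjusted p under 0.05. The 1 call between compounds was ABCB1, the multidrug pump, lower with 6N-10CA than with 10CA by -0.31 (adjusted p = 0.03308 by edgeR). Leaving out any of the 6 libraries in turn ended that call (adjusted p 0.05705 to 0.1608 by edgeR). No gene was called in any comparison among 15 transcription factors known to act on transporter genes, or among 11 tested scaffold and anchor genes of the canalicular membrane by edgeR's quasi-likelihood test. DESeq2 called 0 transcription factors, and 1 scaffold gene between 10CA and 6N, where it called 496 of all 14797 genes. Up to 2 of the 15 and up to 3 of the 11 had an unadjusted p under 0.05 in a comparison. Of all genes, 479 to 2137 had one, depending on the comparison. Against vehicle the list medians lay between -0.05 and 0.10 for the FXR list, -0.05 and 0.08 for the other transporters, -0.02 and 0.07 for the transcription factors and -0.04 and 0.04 for the scaffolds. The receptor gene NR5A2, 1 of the 15, differed from vehicle by 0.03 with 6N, 0.16 with 10CA, 0.07 with 6N-10CA and 0.03 with DLPC.

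**Figure D5:**
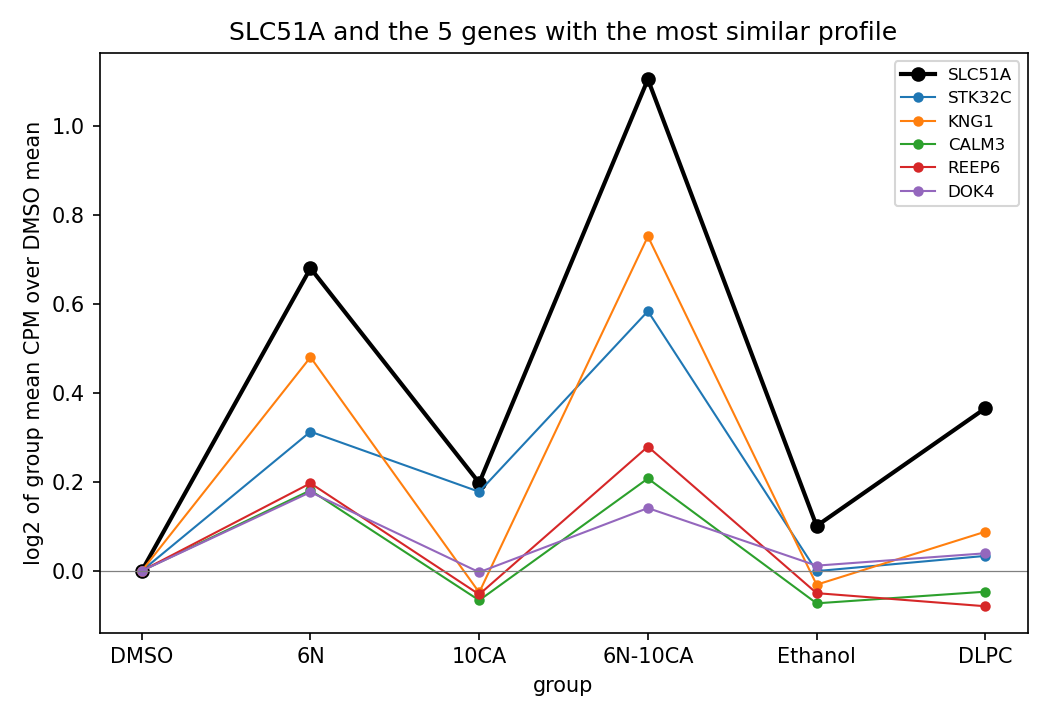
Log2 of the mean CPM in each treatment over the mean with DMSO, for SLC51A and the 5 genes whose profiles over the 18 libraries were most like it. All 6 means are higher with 6N and with 6N-10CA than with DMSO, and SLC51A has the largest difference with 6N-10CA, at 1.11. The 5 genes were chosen for likeness in these same libraries, so the shared direction is no separate result.

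The 5 genes whose log2 CPM had the highest Pearson correlation with SLC51A over the 18 libraries, among 12590 genes of at least 1 CPM, were STK32C (0.89), KNG1 (0.87), CALM3 (0.87), REEP6 (0.83) and DOK4 (0.83). The 18 libraries fall into 6 treatments and are not independent points, and these values carry no p. In edgeR's quasi-likelihood test STK32C and KNG1 were called with both 6N and 6N-10CA. DOK4 was called with 6N and not with 6N-10CA, and CALM3 and REEP6 were called with neither. STK32C, a protein kinase gene, went from 49.99 ± 1.49 CPM with DMSO to 62.1 ± 2.53 CPM with 6N and 75.0 ± 4.36 CPM with 6N-10CA (SD, n = 3). KNG1 went from 18.7 ± 0.86 to 26.2 ± 3.49 and 31.6 ± 0.34 CPM in those treatments, and with 10CA it was at 18.1 ± 1.27 CPM. SLC51B had a correlation of 0.48 with SLC51A, rank 578. ABCC2 was at 0.15, ABCC3 at -0.26, ABCC4 at -0.28 and ABCB4 at -0.55.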

How the data were processed

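The authors deposited whole-number read counts per gene symbol, not normalized, for 18 HepG2 libraries in a single table. GRCh38 and DESeq2 are named in the submitters' processing notes; the aligner, counting tool and strand setting are not given there or in the labels. Libraries were prepared from amplified cDNA with the Nextera XT kit, per the labels' protocols, and no molecular identifiers are named, so floors cover counting error only.

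All 18 libraries entered 1 fit in edgeR 4.0.16 (R 4.3.3) with 1 mean per group, TMM scaling and filterByExpr (minimum count 10, minimum total 15), which kept 14797 genes holding 99.96% of counts. Each comparison used the quasi-likelihood test, two-sided, with Benjamini-Hochberg adjustment over all genes tested and a threshold of 0.05. Intervals of 95% come from that fit, whose biological coefficient of variation was 6.96%, and include the spread between libraries. The scripts were tested on simulated counts.

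The members and lists were chosen with earlier results of these data known. The text names the 10 members, at most 3 called genes per list and comparison, NR5A2 and the 5 genes most like SLC51A; other genes were added after their values were seen. Replicates of a group differed by more than sampling noise (chi-square of 4.59 to 14.17 per gene over 18 pairs). The titles do not say whether replicates were separate cultures, so the spread behind each p-value may be technical.

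Gene positions and exon lengths are from GENCODE release 29, and promoter windows from RefSeq on GRCh38.p14. Alternatives were the other vehicle, both vehicles averaged, DESeq2 size factors, DESeq2 1.42.0, limma-voom (limma 3.58.1), no filter, a mean of at least 1 CPM, a replicate block, only the groups compared, and each replicate left out.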

Additional observations from a re-analysis of the deposited data

How the results depend on the processing

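For the 8 tested members, 1009 alternative values over 72 results gave 988 on the same side of the threshold in the same direction, or not called as before, 5 calls lost, 16 calls gained and 0 reversals; 52 uncalled values changed sign. The SLC51A calls with 6N (0.58 to 0.75; adjusted p 1.712e-07 to 0.0196), with 6N-10CA (1.00 to 1.16; 1.14e-17 to 0.0008413) and with 6N-10CA against 10CA (0.79 to 0.99) held in every alternative run. Members called with 6N-10CA against DMSO numbered 1, and 2 (SLC51A and SLC51B) with no filter, the replicate block or DESeq2, where calls over all genes went from 39 to 126, 562 and 173. With DLPC against ethanol they numbered 0, and 1 (ABCC3) with the other vehicle, both vehicles averaged, the replicate block or DESeq2, where calls over all genes also went from 154 to 380, 541, 997 and 380. With 6N-10CA against 6N they numbered 0, 2 with no filter, the replicate block or DESeq2 (all genes 242, and 403, 1231 and 501), 1 (SLC51A) with a mean of at least 1 CPM or limma-voom, and 0 to 1 with a replicate left out. With 10CA against 6N they numbered 1, 0 with only the groups compared, and 0 to 1 with a replicate left out. The counts for the other comparisons did not move. The causes were not tested.

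Same-numbered replicates did not meet the rule for pairing: the correlations of their deviations ran from 0.004 to 0.182 and all exceeded 0.1 in 1 of 15 pairs of groups. Over the 10686 genes of at least 5 CPM they ran from -0.009 to 0.586 and all exceeded 0.1 in 13 of 15, and every one of the 18 libraries was closest to its own number, a hint from the data and not the design. The replicate block lowered the biological coefficient of variation from 6.96% to 4.42%. With it 3.72% of all genes were called with 6N, 3.8% with 6N-10CA and 6.74% with DLPC, SLC51B passed with 6N-10CA (adjusted p = 0.01977 by edgeR) and against 6N (0.01869), and ABCC3 with DLPC (0.01726).

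List counts moved more. With the block the bile acid synthesis list had 4 called with 6N, 2 with 6N-10CA and 2 with DLPC in place of 0, and the FXR list 7, 4 and 5 in place of 2, 1 and 2; the FXR list fell to 1 with DLPC when any replicate was left out. The other transporters had 3, 2 and 4 in place of 0. Between compounds the FXR list had up to 7 with the block where 1 was called (6N-10CA against 10CA), the synthesis list up to 3 where 1 was called (6N-10CA against 6N) and the other transporters 2 where 1 was called; the CYP7A1 and PLTP calls of 6N-10CA were lost with some replicates left out. With 10CA against 6N the synthesis list had 3 and the FXR list 5, and 0 to 2 and 3 to 4 with a replicate left out. Transcription factors reached at most 2 and scaffolds at most 2, with the block. Depth limits ABCB11, SLCO1B1, SLC10A1 and SLCO1B3.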
